A study of Mus musculus with 12 samples.

Results

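The 9 genes described here, Syk, Zap70, Btk, Tec, Blnk, Lat, Lcp2, Plcg2 and Prkcb, encode the kinases, adaptors and first effectors that act directly below the pre-B cell receptor. They were picked by name, whatever their levels, and each was found as 1 row among the 51826 genes of the count table. All 9 passed the filter on low counts, which left 15038 genes for testing. RNA had been sequenced from 12 pre-B cell lines grown from the bone marrow of 2 C57BL/6 mice, 6 with the empty retroviral vector pMIG (EV) and 6 with the same vector carrying BCR-ABL1, the oncogenic kinase that the Philadelphia translocation creates. Each mouse gave 3 lines per condition, named by mouse and letter, so that EV 2C is an EV line of mouse 2.

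All lines shared 7 days of marrow culture with interleukin 7 (IL7), the growth factor of pre-B cells, and 48 h in IL7 after transduction. The BCR-ABL1 lines were next grown without IL7 for 1 week. The EV lines stayed in IL7 and were selected by cell sorting for GFP, which the vector encodes. BCR-ABL1, the loss of IL7 and the absence of a sort step therefore cannot be told apart. The study's methods give female mice as the donors of wild-type marrow. The age of the mice and the clonality of the lines are not given in the sources used here, and p-values measure the spread between lines that share 2 animals.

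The pre-B cell receptor is the first antigen receptor of a B lymphocyte, in which the µ heavy chain pairs with the surrogate light chain and signals through CD79A and CD79B. SRC family kinases phosphorylate the tails of these chains, SYK docks there and phosphorylates the adaptor BLNK, and BLNK brings BTK and the phospholipase PLCG2 together, so that calcium and diacylglycerol are released and protein kinase C beta is activated. In T cells the same steps are carried out by ZAP70 in the place of SYK and by LAT with LCP2, also called SLP76, in the place of BLNK.

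The libraries held between 34791011 and 64547911 counts on genes in EV lines and between 45230023 and 66011225 in BCR-ABL1 lines. The 11 B lineage markers were expressed throughout, with summed levels of 2606 to 4656 CPM (counts scaled to a common library size by TMM) without and 3041 to 3601 CPM with BCR-ABL1, and 1 of them, Cd22, was lower with BCR-ABL1. The 12 myeloid markers summed to at most 1.90 CPM in any line and the 11 mast cell and basophil markers to at most 1.13 CPM. EV 2C stood apart from the other EV lines of its mouse, with a chi-square of 334 and 498 per gene against EV 2A and EV 2B, where the other pairs of lines of 1 mouse and condition lay between 10.2 and 88.5.

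Of the 9 genes, Zap70 was the one called changed between the EV and the BCR-ABL1 lines, and it was lower in the BCR-ABL1 lines. A call required a change beyond 1.5-fold in edgeR's glmTreat, run on the quasi-likelihood fit of all 12 lines, at a false discovery rate (FDR) under 0.05 over all tested genes. No gene of the 9 was called higher and 8 were not called, whereas 12.5% of all tested genes were called, 5.99% higher and 6.49% lower. The 9 genes had a median log2 change of 0.01, beside -0.02 over all tested genes, and 5 of the 9 values were positive. CPM did not overlap between the 6 EV and the 6 BCR-ABL1 lines for 2 of the 9 genes, Zap70 and Tec, and for 25.6% of all tested genes. Both were lower with BCR-ABL1, the direction of 13.5% of all tested genes.

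**Figure D1:**
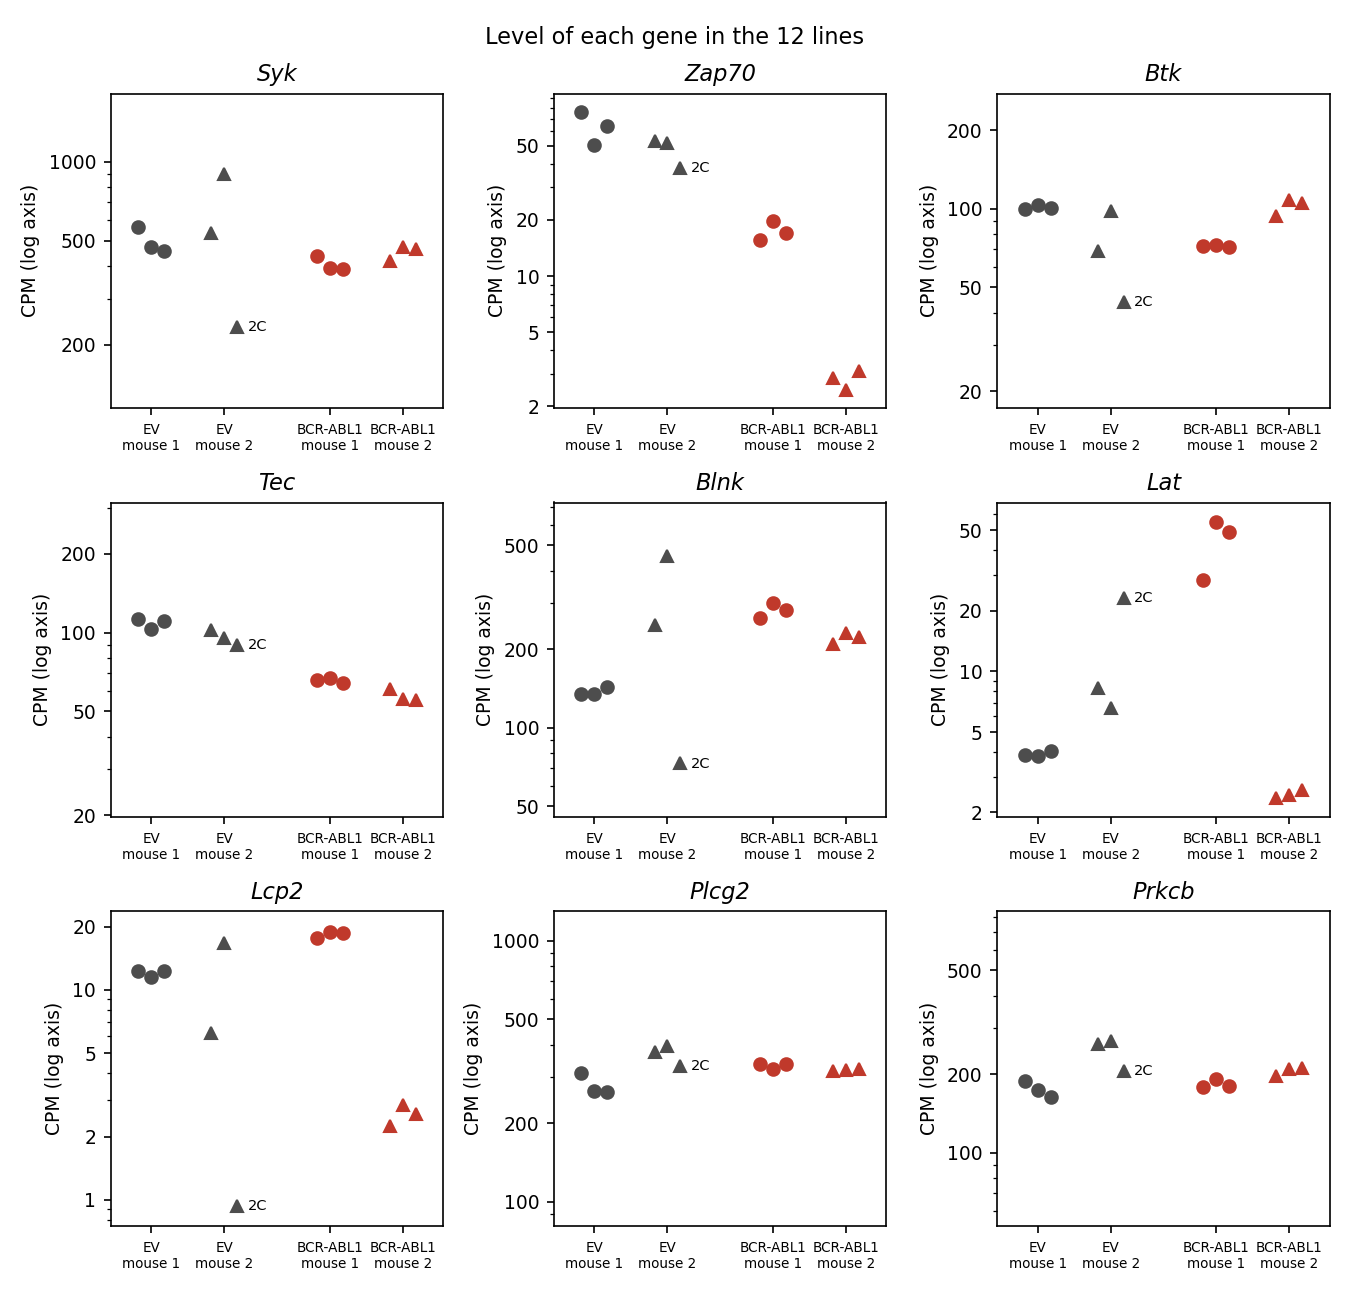
CPM of the 9 genes on a log axis, 1 point per line, with EV in grey, BCR-ABL1 in red, mouse 1 as circles and mouse 2 as triangles. Zap70 and Tec are the genes whose grey and red points do not overlap, Lat and Lcp2 separate the BCR-ABL1 lines by mouse, and EV 2C is the lowest EV line for Syk, Zap70, Btk, Tec, Blnk and Lcp2.

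Zap70 (ENSMUSG00000026117, GRCm38 chromosome 1, 36761798 to 36782818, plus strand) encodes the SYK family kinase best known from the T cell receptor. It stood at 76.3, 50.4 and 64.0 CPM in EV 1A, 1B and 1C, and at 52.8, 51.8 and 38.1 CPM in EV 2A, 2B and 2C. With BCR-ABL1 the lines of mouse 1 held 15.5, 19.7 and 17.0 CPM and those of mouse 2 held 2.85, 2.45 and 3.11 CPM. Every BCR-ABL1 line was thus below every EV line, and the BCR-ABL1 lines formed a higher group from mouse 1 and a lower group from mouse 2. Over all lines Zap70 fell by 2.46 on the log2 scale (SE 0.60), a 5.50-fold lower level, with an adjusted p of 0.0147 by glmTreat. Here and below, SE is that of the difference between group means of log2 CPM, and not that of the fitted change. The 2 can differ, since mean log2 CPM of Zap70 was 5.76 in EV and 2.81 in BCR-ABL1 lines. With mouse as replicate block the change was -2.95 (glmTreat, adjusted p = 0.000445), in a fit that called 14.7% of all tested genes, 7.49% higher and 7.18% lower.

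The fall of Zap70 was present in both animals but differed in size. It was -1.86 (SE 0.20) in mouse 1 and -4.07 (SE 0.18) in mouse 2, each on the log2 scale from a fit to the 6 lines of that mouse. Zap70 was called lower in both fits by glmTreat, with adjusted p of 7.16e-06 and 0.000516, beside 12.2% of tested genes called lower in mouse 1 and 2.65% in mouse 2. The difference between the mice, mouse 2 minus mouse 1, was -2.22 in the interaction of mouse and condition (edgeR quasi-likelihood F test, adjusted p = 0.000147). Without EV 2C the fall in mouse 2 was -4.18, so this line did not carry it.

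ZAP70 is best known from T and NK cells, whose markers were read beside it. Of the 16 markers 3 passed the filter, of which Cd2 was higher and Cd3d lower with BCR-ABL1, and Cd8b1, Thy1, Nkg7, Ncr1 and Gzmb were at 3 counts or fewer in every line. EV lines had summed levels of 3.79 to 38.2 CPM. BCR-ABL1 lines had 72.8 to 87.9 CPM, nearly all of it Cd2, a gene that B lineage cells also express. Without Cd2 the other 15 markers, a split made after their values were seen, summed to 0.910 to 4.05 CPM without and 0.664 to 4.20 CPM with BCR-ABL1. This sum joined unlike changes. Cd3d, Cd3g and Cd247 were lower with BCR-ABL1 without overlap, as were 13.5% of all tested genes. Their means were 0.485, 0.165 and 0.335 CPM without and 0.0754, 0.00283 and 0.0484 CPM with BCR-ABL1. Klrb1c, Cd28 and Prf1 had higher means with BCR-ABL1, Klrb1c going from 0.480 to 1.29 CPM without a call. The part of T or NK cells in the change of Zap70 was not tested. In bulk RNA, fewer cells of a type and less RNA per cell cannot be told apart.

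Syk (ENSMUSG00000021457, chromosome 13, 52583173 to 52648792, plus strand), the kinase that starts the cascade in B lineage cells, was not called. Its level in EV lines ran from 233 CPM in EV 2C through a median of 505 CPM to 896 CPM in EV 2B, and in BCR-ABL1 lines from 390 through 428 to 473 CPM. The BCR-ABL1 lines lay within the range of the EV lines. The log2 fold change was -0.29 (SE 0.26, adjusted p = 1 by glmTreat), and it was -0.28 in each mouse taken alone, although leaving out EV 2C moved the value in mouse 2 to -0.62.

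Zap70 and Syk were also set against each other within a line, as CPM per kilobase of exon, since only levels per length can be compared between genes. Zap70 made up 15.3% to 33.9% of the sum of both in EV lines. With BCR-ABL1 it made up 10.0% to 13.6% in mouse 1 and 1.59% to 2.08% in mouse 2. Syk was therefore the more abundant kinase of the pair in all 12 lines, and the share of Zap70 was lower in each BCR-ABL1 line than in any EV line. With the length of the longest coding transcript in place of all exons, the shares were 12.1% to 28.1% in EV lines and 1.22% to 10.7% in BCR-ABL1 lines.

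**Figure D2:**
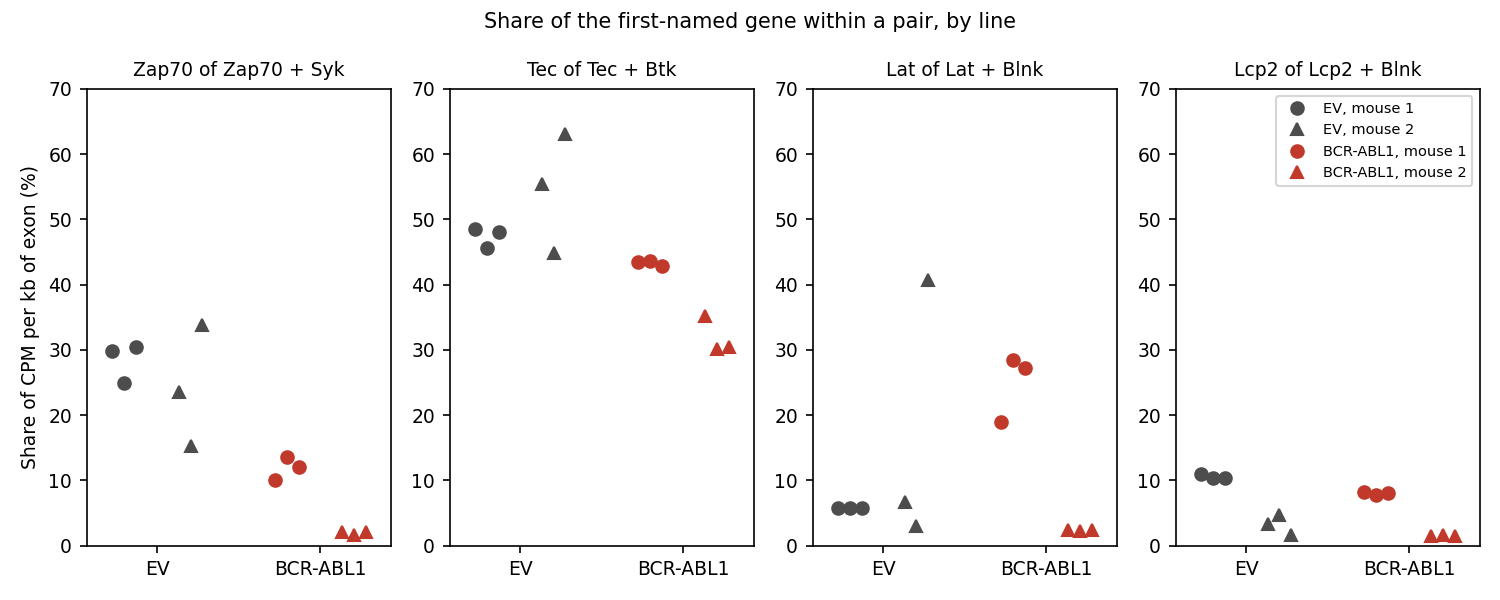
Share of the first-named gene in the summed CPM per kb of exon of a pair (percent), 1 point per line, with EV in grey, BCR-ABL1 in red, mouse 1 as circles and mouse 2 as triangles. The share of Zap70 falls from 15.3% to 33.9% in EV lines to at most 13.6% in BCR-ABL1 lines, the share of Tec is at most 43.6% in BCR-ABL1 lines and at least 44.9% in EV lines, the share of Lcp2 is higher in every line of mouse 1 than in any line of mouse 2, and that of Lat separates the mice among BCR-ABL1 lines.

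The TEC family kinases act beside SYK and activate the phospholipases. Tec (ENSMUSG00000029217, chromosome 5, 72755716 to 72868483, minus strand), the kinase that gave the family its name, held 112, 103 and 111 CPM in the EV lines of mouse 1 and 102, 95.1 and 89.5 CPM in those of mouse 2. The BCR-ABL1 lines held 66.0, 66.9 and 63.9 CPM in mouse 1 and 60.7, 55.8 and 55.1 CPM in mouse 2. All BCR-ABL1 lines were below all EV lines, and the 3 lines of 1 mouse and condition lay close together.

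The change of Tec had nearly the same size in both animals. The log2 fold change was -0.73 (SE 0.07) over all lines, -0.72 in mouse 1 and -0.73 in mouse 2, a 1.66-fold lower level over all lines. This was close to the 1.5-fold margin, and glmTreat did not call it over all lines (adjusted p = 0.0632). It was called with mouse as replicate block (glmTreat, adjusted p = 0.0135) and in the test against no change (edgeR quasi-likelihood F test, adjusted p = 2.61e-05), where 48.5% of all tested genes were called, 25.9% as lower. Leaving out EV 2B or EV 2C also led to a call, with adjusted p of 0.0416 and 0.0191 by glmTreat, and without any other single line the adjusted p stayed between 0.0511 and 0.240. The change did not differ detectably between the mice, with a difference of -0.01 (edgeR quasi-likelihood F test, adjusted p = 0.967).

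Btk (ENSMUSG00000031264, X chromosome, 134542336 to 134583570, minus strand), the kinase whose loss causes X-linked agammaglobulinaemia, was not called. It stood at 100.1, 103 and 101 CPM in the EV lines of mouse 1 and at 72.1, 72.9 and 71.7 CPM in the BCR-ABL1 lines of that mouse, without overlap. In mouse 2 the EV lines held 68.8, 98.2 and 44.0 CPM and the BCR-ABL1 lines 94.2, 108 and 106 CPM. BCR-ABL1 lines were thus below EV lines in mouse 1, and all but 1 of the EV lines of mouse 2 were below the BCR-ABL1 lines. The share of all tested genes without overlap within 1 mouse is not given here.

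Its log2 change was 0.03 (SE 0.23) over all lines, -0.48 (SE 0.02) in mouse 1 and 0.56 (SE 0.34) in mouse 2, or 0.34 there without EV 2C, and none of these passed glmTreat. The difference between the mice was 1.04 (edgeR quasi-likelihood F test, adjusted p = 0.0350). This call was lost on leaving out any of 10 of the 12 lines, with an adjusted p of up to 0.0791. Tec made up 44.9% to 63.1% of the summed CPM per kilobase of Tec and Btk in EV lines and 30.2% to 43.6% in BCR-ABL1 lines.

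Among the adaptors, the B cell scaffold Blnk (ENSMUSG00000061132, chromosome 19, 40928927 to 40994535, minus strand) was not called over all lines but was higher in mouse 1. There it rose from 134, 134 and 143 CPM in EV lines to 263, 299.7 and 283 CPM in BCR-ABL1 lines, a log2 change of 1.05 (SE 0.06, adjusted p = 1.83e-05 by glmTreat within the mouse, where 28.5% of tested genes were called, 16.3% as higher). In mouse 2 the EV lines were spread from 73.0 CPM in EV 2C through 247 CPM in EV 2A to 454 CPM in EV 2B, and the BCR-ABL1 lines at 209, 231 and 223 CPM lay inside that range. The change there was -0.21 (SE 0.78), or -0.63 without EV 2C, and was not called in either case, where 6.64% of tested genes were called with EV 2C. The pooled value was 0.35 (SE 0.38, adjusted p = 1 by glmTreat), and the difference between the mice was -1.26 (edgeR quasi-likelihood F test, adjusted p = 0.209).

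Lat (ENSMUSG00000030742, chromosome 7, 126363824 to 126369570, minus strand), the membrane adaptor of T cells that is also found in other blood cells, lay on opposite sides of EV in the BCR-ABL1 lines of the 2 mice. In mouse 1 it was at 3.84, 3.78 and 4.02 CPM in EV lines and at 28.5, 54.9 and 48.8 CPM in BCR-ABL1 lines. In mouse 2 it was at 8.22, 6.61 and 23.2 CPM in EV lines and at 2.37, 2.45 and 2.57 CPM in BCR-ABL1 lines. The 2 sets of lines did not overlap in either mouse, with BCR-ABL1 above EV in mouse 1 and below EV in mouse 2. How many of all tested genes separate within a mouse is not given here.

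The change of Lat was 3.51 (SE 0.29) in mouse 1, where it was called higher with an adjusted p of 6.15e-07, and -2.36 (SE 0.56) in mouse 2, where it was not called with an adjusted p of 0.0576, both by glmTreat. Without EV 2C, the EV line with the highest Lat level, the change in mouse 2 was -1.55 and was called (glmTreat, adjusted p = 0.00261), in a fit that called 24.6% of tested genes, 12.5% as lower. The difference between the mice was -5.87 (edgeR quasi-likelihood F test, adjusted p = 7.33e-05) and was called without each of the 12 lines in turn. The pooled change of 1.49 (SE 1.01, adjusted p = 0.501 by glmTreat) thus joined mice with values of opposite sign, and is not their plain average. With mouse as replicate block it was 0.60. Mean log2 CPM of Lat was 2.70 in EV and 3.36 in BCR-ABL1 lines. A miRNA gene, Mir7058, shares 75 bases of exon with Lat on the same strand, and reads from these bases cannot be assigned to one of the pair.

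Lcp2 (ENSMUSG00000002699, chromosome 11, 34046920 to 34092295, plus strand), the T cell and myeloid counterpart of Blnk, was at 12.3, 11.5 and 12.3 CPM in the EV lines of mouse 1 and at 17.6, 18.9 and 18.7 CPM in the BCR-ABL1 lines of that mouse. In mouse 2 it was at 6.26, 16.6 and 0.938 CPM in EV lines and at 2.25, 2.83 and 2.55 CPM in BCR-ABL1 lines. The BCR-ABL1 lines were the higher ones in mouse 1, and in mouse 2 they lay between EV 2C and the other EV lines. The log2 change was 0.62 (SE 0.04) in mouse 1, -1.62 (SE 1.20) in mouse 2 and 0.07 (SE 0.89) over all lines, and none of these was called by glmTreat. Without EV 2C the change in mouse 2 was -2.13 and was called (glmTreat, adjusted p = 0.0114). The difference between the mice was -2.25 (edgeR quasi-likelihood F test, adjusted p = 0.128), and it was called in the fit without EV 2C (adjusted p = 0.000122) and in no other fit that left out 1 line. The gene 4930469K13Rik on the opposite strand shares 282 bases of exon with Lcp2 and had at most 9 counts in any line.

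The effector genes were not called over all lines. Plcg2 (ENSMUSG00000034330, chromosome 8, 117498291 to 117635142, plus strand), the phospholipase of the B cell cascade, ran from 264 through a median of 321 to 397 CPM in EV lines and from 318 through 322 to 337 CPM in BCR-ABL1 lines. The log2 change was 0.01 (SE 0.10) over all lines, with 0.25 in mouse 1 and -0.18 in mouse 2. Within each mouse the conditions did not overlap, with BCR-ABL1 lines above EV lines in mouse 1 and below them in mouse 2. No share of all tested genes is given for such separation within a mouse, and the changes were small. The difference of -0.44 between the mice had an adjusted p of 0.0366 (edgeR quasi-likelihood F test), and leaving out any of 10 of the 12 lines took that call away, with an adjusted p of up to 0.0976. Prkcb (ENSMUSG00000052889, chromosome 7, 122288751 to 122634402, plus strand), which encodes protein kinase C beta, ran from 164 through 198 to 268 CPM in EV lines and from 178 through 195 to 211 CPM in BCR-ABL1 lines. The log2 change was -0.11 (SE 0.13, adjusted p = 1 by glmTreat), and the BCR-ABL1 lines lay within the range of the EV lines for both effectors.

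**Figure D3:**
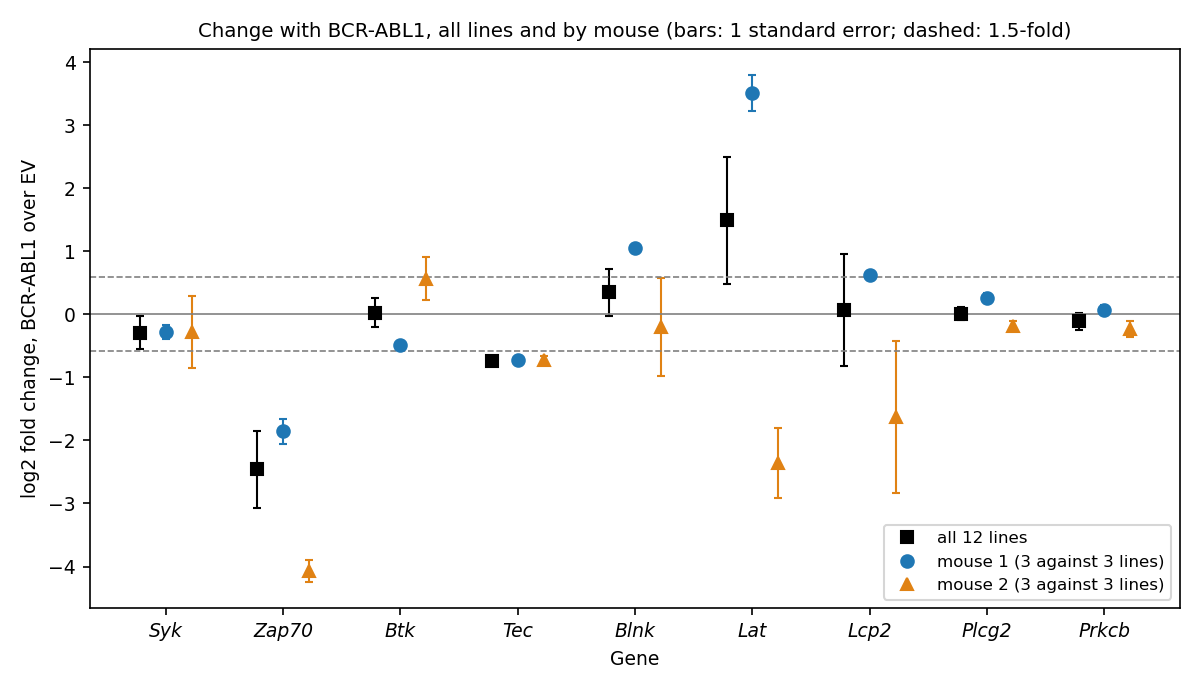
Log2 fold change of each gene, BCR-ABL1 over EV, fitted over all 12 lines (squares), in mouse 1 (circles) and in mouse 2 (triangles), with dashed lines at a 1.5-fold change. Bars are 1 standard error of the difference between group means of log2 CPM, drawn around the fitted change. Zap70 and Tec are below 0 in all 3 fits, Lat is at 3.51 in mouse 1 and -2.36 in mouse 2, and the wide bars of Syk, Blnk and Lcp2 in mouse 2 go with the spread of its EV lines.

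Over the 9 genes, 4 had a change that differed between the mice by the interaction test, Zap70, Btk, Lat and Plcg2, beside 16.9% of all tested genes. Leaving out 1 line at a time gave between 2 and 7 such genes. The count was 7 without EV 2C, 3 without EV 1A or without EV 2B, and 2 without any of the other 9 lines. The share of all tested genes called is not given for these fits, so the counts are not a result about the 9 genes. Zap70 and Lat were called in all 12 of these fits, with adjusted p of at most 0.000933 and 0.000719 by edgeR's quasi-likelihood F test.

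The lines of each condition were also compared between the mice, a test added after the values by line were seen and one that rests on the same lines as the interaction. Among BCR-ABL1 lines, Zap70 was 6.23-fold, Lcp2 7.20-fold and Lat 17.9-fold higher in mouse 1 than in mouse 2. The log2 differences, mouse 2 minus mouse 1, were -2.64 (SE 0.14) for Zap70, -2.85 (SE 0.10) for Lcp2 and -4.16 (SE 0.29) for Lat. All 3 were called by glmTreat with adjusted p of 9.55e-06, 1.88e-06 and 1.71e-05. The other 6 genes were not called, with log2 differences between -0.35 for Blnk and 0.51 for Btk, and 7.25% of all tested genes were called in this comparison, 3.4% as lower in mouse 2.

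Among EV lines no gene of the 9 was called between the mice, and 6.12% of all tested genes were. The log2 difference of Zap70 was -0.43 (SE 0.23), that of Lcp2 -0.63 (SE 1.20) and that of Lat 1.72 (SE 0.56, adjusted p = 0.196 by glmTreat), which moved to 0.92 without EV 2C (adjusted p = 0.0707). Without EV 2C, Blnk was called higher in mouse 2 (log2 difference 1.35, adjusted p = 0.0134 by glmTreat), where 15.5% of all tested genes were called, 12.1% as higher. The genes of the 9 that were called between the BCR-ABL1 lines of the 2 animals were thus Zap70, Lat and Lcp2, the counterparts used by T cells.

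Because these 3 genes differed together between the BCR-ABL1 lines of the mice, their promoters are shown. The windows of 300 bases are those of RefSeq on GRCm38.p6 and run across the start of transcription, at chr1:36761548-36761847 (plus strand) for Zap70, chr7:126369519-126369818 (minus strand) for Lat and chr11:34046678-34046977 (plus strand) for Lcp2. For Zap70, the first of 3 listed windows is given. Capitals mark matches, on either strand, to the motifs named below.
Zap70: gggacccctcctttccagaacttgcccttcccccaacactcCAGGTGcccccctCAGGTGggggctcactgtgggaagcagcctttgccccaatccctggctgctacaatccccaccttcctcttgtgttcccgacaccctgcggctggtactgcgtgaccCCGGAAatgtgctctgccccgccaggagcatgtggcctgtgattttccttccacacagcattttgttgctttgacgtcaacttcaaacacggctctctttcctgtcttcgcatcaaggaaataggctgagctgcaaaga
Lat: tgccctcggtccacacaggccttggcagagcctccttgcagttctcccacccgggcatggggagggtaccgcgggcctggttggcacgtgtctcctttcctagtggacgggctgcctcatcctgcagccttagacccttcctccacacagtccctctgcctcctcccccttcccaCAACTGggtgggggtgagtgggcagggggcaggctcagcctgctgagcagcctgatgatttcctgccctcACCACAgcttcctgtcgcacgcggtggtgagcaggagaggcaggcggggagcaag
Lcp2: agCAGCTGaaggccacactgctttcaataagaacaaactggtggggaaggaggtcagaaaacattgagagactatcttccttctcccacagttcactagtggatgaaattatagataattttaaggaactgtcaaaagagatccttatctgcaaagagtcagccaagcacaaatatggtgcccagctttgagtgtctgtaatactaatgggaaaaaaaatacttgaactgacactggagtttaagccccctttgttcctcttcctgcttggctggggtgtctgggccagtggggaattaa

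The letters searched on both strands were TTCNNNGAA for STAT factors, GTAAACA for FOXO factors, TCCC and GGGA with any 2 bases between them for EBF, CAGNTG for E-boxes of the E2A kind, TGTGGT for RUNX and CCGGAA for ETS factors. The Zap70 window held 2 E-boxes and 1 ETS match, the Lat window 1 E-box and 1 RUNX match, and the Lcp2 window 1 E-box. The letters of STAT, FOXO and EBF were in none of the 3 windows. Among 32851 promoter windows of the same length, 51.4% held the E-box, 16.8% the RUNX letters, 14.9% the ETS letters, 8.30% the STAT letters, 3.65% the FOXO letters and 0.904% the EBF letters. The GC content was 57.3% for Zap70, 65.7% for Lat and 43.3% for Lcp2.

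Levels per length gave the order of the 9 genes. In EV lines Plcg2 was the highest at 75.4 ± 12.8 CPM per kb of exon (SD, n = 6), followed by Syk at 56.2 ± 23.0 and Blnk at 33.0 ± 23.0. Prkcb, Tec and Btk came next at 27.6 ± 5.83, 27.3 ± 2.37 and 27.3 ± 7.67, which did not differ beyond their spread by this length. Zap70 at 18.6 ± 4.37 stood above Lat at 2.99 ± 2.72 and Lcp2 at 2.24 ± 1.24, and these last values overlapped.

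In BCR-ABL1 lines the order at the top was kept, with Plcg2 at 75.9 ± 1.97, Syk at 45.9 ± 3.80 and Blnk at 42.0 ± 6.03 CPM per kb (SD, n = 6), of which Syk and Blnk overlapped. Btk at 27.8 ± 5.53 and Prkcb at 25.5 ± 1.83 were not separated by this length, and Tec at 16.4 ± 1.36 was now below both. Lat at 8.40 ± 8.82, Zap70 at 3.38 ± 2.71 and Lcp2 at 2.35 ± 1.95 were the lowest, with SDs near their means. With the longest coding transcript as length, Syk and Blnk ranked above Plcg2 in both conditions, whereas Zap70, Lat and Lcp2 remained the lowest. By that length Prkcb stood at 72.4 CPM per kb in EV lines, above Tec at 38.4 and Btk at 33.8. In BCR-ABL1 lines it stood at 67.0, above Btk at 34.4. The order among the higher genes therefore depends on the length used.

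The share of Lat in the summed CPM per kilobase of Lat and Blnk was 5.75% to 5.82% in the EV lines of mouse 1 and 19.0% to 28.4% in its BCR-ABL1 lines. In mouse 2 it was 3.06% to 40.7% in EV lines, the highest value being that of EV 2C, and 2.24% to 2.44% in BCR-ABL1 lines. Lcp2 made up 1.70% to 11% of the sum of Lcp2 and Blnk in EV lines and 1.43% to 8.25% in BCR-ABL1 lines. Blnk was the more abundant adaptor of each pair in all 12 lines.

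The 9 genes also differed in how far lines of 1 group lay apart. The SD of log2 CPM over the EV lines of mouse 2 exceeded that over its BCR-ABL1 lines for all 9 genes and for 80.7% of all tested genes. Without EV 2C, which leaves 2 EV lines of that mouse, it did so for 6 of the 9 and for 58.9% of all tested genes. Its median over the 9 genes was 0.580 in the EV lines of mouse 2, or 0.220 without EV 2C, against 0.0699 in the EV lines of mouse 1. It was 0.0590 with BCR-ABL1 in mouse 1 and 0.0763 with BCR-ABL1 in mouse 2. Over all tested genes the medians were 0.325, 0.120, 0.0975 and 0.125 in the same order. Lcp2 with an SD of 2.08, Blnk with 1.34 and Syk with 0.98 were the most spread in the EV lines of mouse 2, and Tec with 0.094 was the least. Without EV 2C these SDs were 0.99, 0.62, 0.52 and 0.070, and that of Lat went from 0.96 to 0.22.

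The rest of the pathway was read from lists of 86 genes, arranged by role, of which 83 were tested. Of these 7 were higher, 11 lower and 65 not called, so that 21.7% were called beside 12.5% of all tested genes. Adding mouse as replicate block gave 11 higher and 12 lower genes, beside 7.49% and 7.18% of all tested genes. Yes1, Bmx and Lair1 did not pass the filter. The interaction test called 29 of the 83 genes, beside 16.9% of all tested genes.

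Among 6 chains of the receptor, 1 was lower and 5 were not called. Ighm, the µ heavy chain, ran from 2228 through a median of 2767 to 3582 CPM in EV lines and from 1232 through 1364 to 1445 CPM in BCR-ABL1 lines, without overlap. The log2 change was -1.07 (SE 0.10, adjusted p = 0.00129 by glmTreat). The signaling chains Cd79a and Cd79b and the surrogate light chain genes Vpreb1, Vpreb2 and Igll1 were not called over all lines. In mouse 1 alone the surrogate light chain genes were called higher, by 1.51 on the log2 scale for Vpreb1, 3.1 for Vpreb2 and 1.19 for Igll1 (glmTreat, adjusted p of 2.95e-06, 5.78e-08 and 9.20e-06). In mouse 2 they were at -0.44, -0.41 and -0.52 and were not called, and the difference between the mice had an adjusted p of 0.000412, 5.1e-05 and 0.0058 in edgeR's quasi-likelihood F test.

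Of the 10 tested kinases of the SRC and TEC families with CSK, 2 were lower and none higher. Txk, a TEC family kinase of T cells, went from a median of 2.76 CPM in EV lines to 1.32 CPM in BCR-ABL1 lines (log2 fold change -1.10, SE 0.14, adjusted p = 0.00910 by glmTreat). Fgr, a SRC family kinase of myeloid cells, was at most 1.45 CPM in any line, with a log2 fold change of -2.82 (SE 0.42). Lyn, Fyn, Blk and Lck, the SRC family members of lymphocytes, were not called.

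Of the other 26 adaptors and exchange factors, 3 were higher and 2 lower. Bank1, a scaffold of B cells that binds SRC kinases, rose from a median of 8.10 CPM to 37.0 CPM (log2 fold change 2.51, SE 0.27, adjusted p = 8.43e-05 by glmTreat), and Nck2, an SH2 and SH3 domain adaptor, from 0.381 to 16.3 CPM (4.05, SE 1.02). The EV lines of mouse 1 held only 1 to 5 counts of Nck2, and those of mouse 2 held 37 to 154. The log2 change of Nck2 was 7.34 in mouse 1 and 3.55 in mouse 2. It differed between the mice (edgeR quasi-likelihood F test, adjusted p = 0.0055). Lat2, the transmembrane adaptor of B and mast cells related to Lat, fell from a median of 8.86 CPM to 2.05 CPM, by 1.82 on the log2 scale (SE 0.23, adjusted p = 0.000807 by glmTreat). Vav2 fell from 119 to 63.9 CPM (-0.82, SE 0.11). The 2 groups did not overlap for any of these 4 genes.

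Of 19 effectors of calcium, diacylglycerol and NF-kB signaling, 2 were higher and 2 lower, and each direction held 1 RAS exchange factor. Rasgrp1, which diacylglycerol recruits in T cells, rose from a median of 3.88 to 51.1 CPM (log2 fold change 3.82, SE 1.28, adjusted p = 0.0268 by glmTreat), from 3 to 21 counts in the EV lines of mouse 1. Rasgrp3, its relative in B cells, fell from 5.04 to 0.899 CPM (-2.94, SE 0.44, adjusted p = 0.00129 by glmTreat). Plcg1, the phospholipase that T cells use in the place of Plcg2, rose from 33.9 to 139 CPM (1.73, SE 0.27, adjusted p = 0.00319 by glmTreat), whereas Plcg2 itself did not change beyond the threshold. The log2 change of Plcg1 was 2.48 in mouse 1 and 1.02 in mouse 2, where glmTreat did not call it. Itpr2, an IP3 receptor, fell from 230.2 to 122 CPM (-1.28, SE 0.23).

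Of 22 tested inhibitors, 2 were higher and 4 lower. Cd72, an inhibitory coreceptor of B cells, fell from a median of 502 to 76.7 CPM (-2.52, SE 0.20, adjusted p = 7.65e-06 by glmTreat), and Ubash3a, a suppressor of ZAP70 and SYK signaling in T cells, from 100.3 to 27.0 CPM (-1.82, SE 0.48, adjusted p = 0.0287 by glmTreat). The adaptors Sla2 and Dok2 were higher, from medians of 0.553 and 0.393 CPM to 2.72 and 1.10 CPM. These 2 genes were thus called at levels of at most 3.49 CPM in any line.

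**Figure D4:**
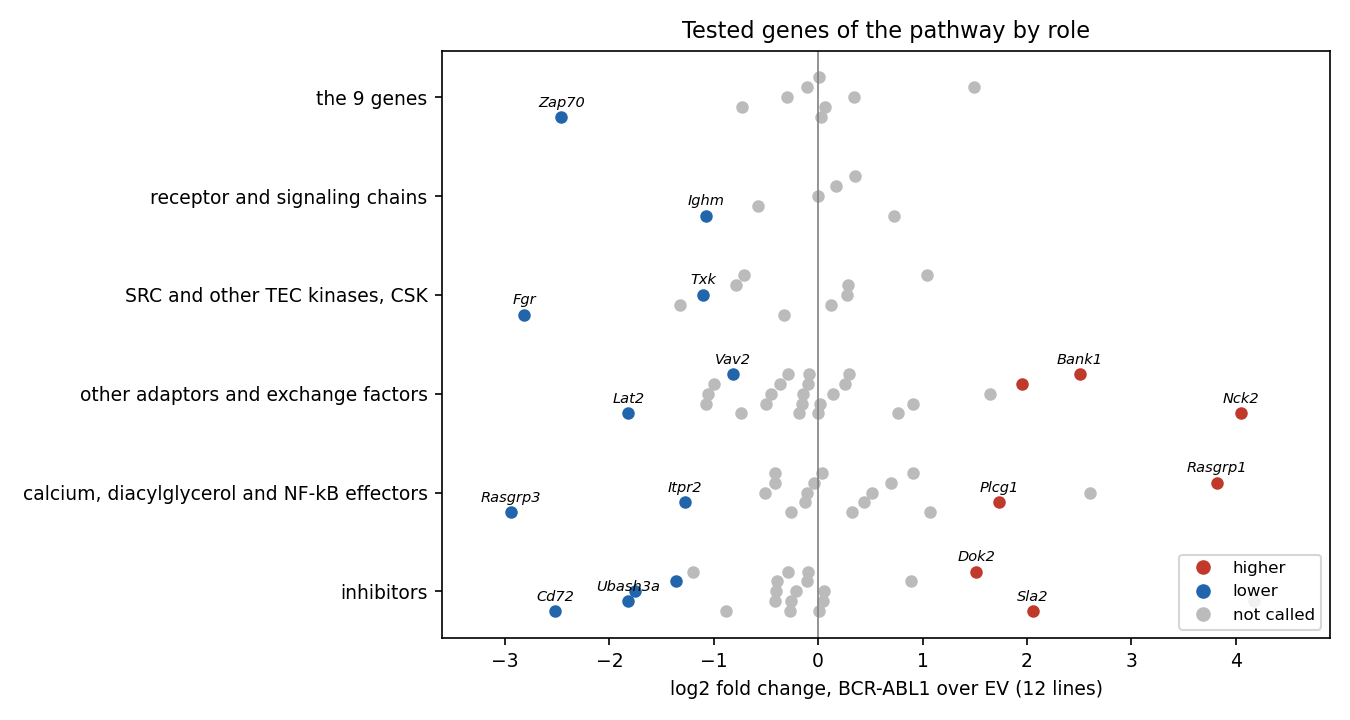
Log2 fold change, BCR-ABL1 over EV in all 12 lines, of the 9 genes and of the 83 tested pathway genes by role, with higher genes in red, lower genes in blue and genes not called in grey, and names on called genes that the text describes. Among the 9 genes Zap70 is the 1 blue point at -2.46, and Rasgrp1 at 3.82 and Rasgrp3 at -2.94 lie at opposite ends of the effector row.

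For the 4 genes that were called or differed between the mice, the tested genes with the most similar log2 CPM over the 12 lines were looked up, as a description, since the lines share mice and conditions. Ubash3a was the closest to Zap70 (Pearson r = 0.990), followed by Gm38577 (0.984) and Afmid (0.977). Lat was closest to Prss57 (0.974), Cxcr5 (0.933) and Cd52 (0.925), Btk to Rag2 (0.937), Prkx (0.926) and Siglecg (0.923), and Plcg2 to Rhobtb1 (0.961), Gm12655 (0.946) and Cfap54 (0.946).

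The 10 markers of the stage at which light chains are made had summed levels of 963 to 1862 CPM without and 575 to 635 CPM with BCR-ABL1, with Cd2 higher and Igkc, Iglc2 and Ms4a1 lower. The 8 megakaryocyte and platelet markers, of which Itga2b was lower, summed to at most 4.20 CPM in any line. The summed level of the light chain stage markers was lower in every BCR-ABL1 line than in any EV line, as were Zap70 and Tec. Igkc alone went from a mean of 364 CPM in EV lines to 54.1 CPM in BCR-ABL1 lines. Cd2 moved the other way, and the markers of that list not named above were not called. The part of light chain stage in the results for Zap70 and Tec was not tested.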

How the data were processed

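Total RNA of 12 mouse pre-B cell lines was sequenced with a strand-specific kit. The authors deposited whole-number read counts for 51826 genes in each line, not normalized and not pooled. The submitters' processing notes name FastQC 0.11.5, Trimmomatic 0.36, TopHat2 2.1.1, Bowtie2 2.3.2, featureCounts 1.5.3, R 3.6.1, edgeR 3.18.1 and the build GRCm38. The strand setting of the counting is not given in the sources used here, so that reads of genes on opposite strands may not be told apart.

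Counts were fitted in R 4.3.3 with edgeR 4.0.16 and limma 3.58.1 (filterByExpr, TMM, quasi-likelihood fit, glmTreat against 1.5-fold, Benjamini-Hochberg over all tested genes, FDR threshold 0.05, condition as the term). The study's notes name this margin and threshold, with a likelihood ratio fit that was run as an alternative. Differences between the mice were tested with glmQLFTest. Symbols, positions and exon lengths came from GENCODE M21, which held 51633 of the identifiers. CPM uses the TMM library size, and log2 CPM a prior count of 2. Depth was 34791011 to 66011225 counts per line, and a gene with 3 counts or fewer was read as being at the floor. Plots used matplotlib 3.10.9 and Python 3.11.15. The fits were tested on simulated data.

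EV and BCR-ABL1 lines share the names 1A to 2C, of which the digit is the mouse by the labels. Deviations from the condition means correlated at 0.0853 to 0.240 for lines of the same mouse and at -0.203 to -0.0636 for lines of different mice. With mouse means removed, lines of the same mouse and letter correlated at -0.109 to 0.0856, and those of the same mouse and unlike letters at -0.121 to 0.123. By correlation the mouse thus pairs the lines and the letter does not. The study's methods name triplicates from independent experiments. Whether the letters mark these experiments is not stated, so a batch within a mouse cannot be told from the labels.

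The 9 genes, the pathway and marker lists and the tests were chosen with earlier results of these data known. The genes named are all 9, per pathway list the 2 called genes that rose most and the 2 that fell most, and the 3 tested genes most correlated with each of the 9 that was called or differed between the mice; genes named beyond this are members of a list given as not called, not tested, at the floor or counted as called. The alternatives were each mouse alone, each line left out, a replicate block of mouse or of line pair, DESeq2 1.42.0, the likelihood ratio fit, a test against no change, RLE size factors, a filter at CPM 1 in 6 lines and no filter. Fits without EV 2C, with mouse as block or in mouse 2 alone, the spread without EV 2C and the comparisons between mice within a condition were added after seeing the data. Protein sequences are not used here.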

Additional observations from a re-analysis of the deposited data

Results flagged for a closer look

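Lcp2 in EV 2C, at a log2 CPM of -0.037, lay far below the other 5 EV lines, which ran from 2.65 to 4.06, with a gap of 0.657 of the whole range, above the critical value of Dixon's test for 6 lines. Sla2 in EV 2B, at 0.67, lay above the other EV lines, which ran from -1.13 to -0.56, with a gap of 0.683 of the range. Blk in EV 2C, at 6.08, lay below the others at 8.28 to 8.6 (gap 0.873), Cd2 in EV 2B, at 5.15, above the others at 1.28 to 1.89 (gap 0.844), and Itga2b in BCR-ABL1 2C, at 0.80, above the other BCR-ABL1 lines at -0.15 to 0.11 (gap 0.728). For independent values from 1 normal distribution, such a gap is expected in about 1 in 20 groups tested. The lines here come from 2 mice with unlike spread, and the number of groups searched is not given. This rate therefore may not apply to them.

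The change with BCR-ABL1 differed between the mice by the interaction test (edgeR quasi-likelihood F test, FDR under 0.05) for 4 of the 9 genes and for other genes named in the text. The difference, mouse 2 minus mouse 1 on the log2 scale, was -2.22 for Zap70, 1.04 for Btk, -5.87 for Lat and -0.44 for Plcg2 among the 9 genes. Among the pathway genes it was -3.79 for Nck2, -6.29 for Rasgrp1, -1.46 for Plcg1, 0.48 for Vav2, -2.30 for Rasgrp3 and -1.61 for Ubash3a, all of which were called over all lines. It was -1.96 for Vpreb1, -3.52 for Vpreb2, -1.72 for Igll1, -0.53 for Fyn and -0.98 for Lck, which were not called over all lines, and -5.84 for the light chain gene Iglc2, which was at most 0.424 CPM in any BCR-ABL1 line. Compared within a mouse, every BCR-ABL1 line was above the EV lines in mouse 1 and below them in mouse 2 for Lat and Plcg2. The share of all tested genes with this pattern is not given. For Nck2 and Rasgrp1 the EV lines of mouse 1 held at most 5 and 21 counts, so that the size of the difference rests on few counts there. The calls of Btk and Plcg2 were lost in 10 of the 12 fits that left out 1 line.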

How the results depend on the processing

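Zap70 kept its direction and its call under all 24 alternatives, with log2 fold changes from -4.18 to -1.86 and adjusted p of at most 0.0352, and Syk kept its direction, from -0.62 to -0.09, and was called in none. Tec kept its direction, from -0.77 to -0.67, and was called under 7 of the 24. The other 6 genes changed sign under at least 1 alternative. In mouse 2 alone Blnk was at -0.21, Lat at -2.36, Lcp2 at -1.62 and Plcg2 at -0.18, and without EV 2C they were at -0.63, -1.55, -2.13 and -0.23. In mouse 1 alone Btk was at -0.48 and Prkcb at 0.074. Lcp2 was at -0.50 with mouse as replicate block and at -0.061 with the line pair as replicate block. With mouse as replicate block and without EV 2C, Btk was at -0.14 and Lcp2 at -0.66. Plcg2 was at -0.0090 with the CPM filter. Leaving out single lines moved Btk from -0.11 to 0.11, Lcp2 from -0.18 to 0.27 and Plcg2 from -0.044 to 0.067.

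Among the 9 genes, 2 were called higher in mouse 1 alone, Blnk and Lat. The number called lower was 2, Zap70 and Tec, against no change, with mouse as replicate block (also without EV 2C), with the line pair as replicate block and in mouse 1 alone, 3 in mouse 2 without EV 2C (Zap70, Lat and Lcp2), and 1 to 2 without single lines. The block changed no other call among the 9. The number that differed between the mice was 5 without a gene filter and 5 by DESeq2, and 2 to 7 without single lines. For these fits the share of all tested genes is not given, so the numbers describe the fits and not the 9 genes. Of the pathway genes, 19 were higher and 26 lower against no change, where 48.5% of all tested genes were called, 25.9% as lower. In mouse 1 alone 24 were higher and 18 lower, beside 16.3% and 12.2% of tested genes. In mouse 2 alone 3 were higher and 5 lower, where 6.64% of tested genes were called, 2.65% as lower. With mouse as replicate block 11 were higher, with or without EV 2C, beside 7.49% of all tested genes with EV 2C. In mouse 2 without EV 2C 17 were lower, beside 12.5% of tested genes. The fits on 1 mouse rest on 6 lines or fewer; for the rest the cause was not tested. The lowest count of any of the 9 genes in a line was 52, for Lcp2 in EV 2C, and all comparisons rest on 2 animals.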
